A study of Mus musculus with 22 samples.

Results

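Cluster 10 of the whole-cell dataset held 1577 of 54890 mouse hypothalamic cells. Its members were the cells that the deposited metadata placed under that number, and no other criterion was applied. The cells came from the mediobasal hypothalamus of 12 male, leptin-deficient ob/ob mice of 11 weeks, with 1 mouse per library. Of these, 6 mice had received a single intracerebroventricular (icv) injection of 3 µg fibroblast growth factor 1 (FGF1) into the lateral ventricle 5 days earlier. The other 6 mice had received icv PBS (vehicle) and were pair-fed (PF) to the intake of the FGF1 mice. Both groups therefore lacked leptin, and no lean or freely fed vehicle mice entered the comparison. The metadata number the clusters without naming them, so the label tanycyte was checked against marker genes. Clusters 0 (9509 cells) and 7 (3318 cells), the other tanycyte clusters of the same 12 libraries, were used for comparison.

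Tanycytes are elongated glial cells that line the floor and lower walls of the third ventricle. They take up hormones and metabolites from the cerebrospinal fluid and the blood, convert thyroid hormone, and keep features of neural progenitors. The β subtypes sit ventrally and send processes to the median eminence and arcuate nucleus, whereas the α subtypes sit more dorsally and share more genes with ependymal cells and astrocytes. FGF1 binds the FGF receptors, several of which are made by tanycytes and other glia.

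The markers of cluster 10 belong to different parts of tanycyte physiology. Col25a1 encodes a transmembrane collagen, Scn7a encodes a sodium-sensing channel of the voltage-gated family, Dlk1 encodes a Notch-related transmembrane protein, Six6 encodes a homeodomain factor of the ventral hypothalamus and eye, and Dio2 encodes the deiodinase that makes active thyroid hormone. In GRCm38 with GENCODE annotation, Col25a1 lies at chr3:130131501-130599877 (plus strand), Scn7a at chr2:66673425-66784914 (minus), Dlk1 at chr12:109452823-109463336 (plus), Six6 at chr12:72939892-72944899 (plus) and Dio2 at chr12:90724552-90738438 (minus). The 250 bases upstream of the RefSeq transcript start are shown for the 2 markers detected in the most cells and for Dio2, 5′ to 3′ on the strand of the gene, with matched motifs in capitals. The windows are chr3:130180595-130180844 for Col25a1, which lies inside the longer GENCODE span of the gene, chr2:66784911-66785160 for Scn7a and chr12:90739039-90739288 for Dio2, all in GRCm38.p6.
Col25a1: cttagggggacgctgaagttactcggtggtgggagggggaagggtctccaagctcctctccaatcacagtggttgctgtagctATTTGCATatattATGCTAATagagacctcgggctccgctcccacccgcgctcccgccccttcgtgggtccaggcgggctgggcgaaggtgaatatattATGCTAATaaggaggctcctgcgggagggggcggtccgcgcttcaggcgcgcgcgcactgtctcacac
Scn7a: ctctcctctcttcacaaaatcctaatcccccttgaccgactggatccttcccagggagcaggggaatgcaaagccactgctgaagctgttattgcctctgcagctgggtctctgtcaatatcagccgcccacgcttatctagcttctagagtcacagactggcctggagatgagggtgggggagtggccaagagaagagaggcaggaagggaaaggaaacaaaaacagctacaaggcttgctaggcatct
Dio2: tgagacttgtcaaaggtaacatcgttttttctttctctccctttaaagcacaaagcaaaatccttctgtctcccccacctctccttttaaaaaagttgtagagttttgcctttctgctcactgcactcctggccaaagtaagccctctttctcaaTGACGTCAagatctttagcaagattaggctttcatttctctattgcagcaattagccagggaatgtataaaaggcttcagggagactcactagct
Both strands of the windows were searched for TAATTA, the core read by many homeodomain proteins, for ATGCAAAT, the octamer of POU factors, for its variant ATGCTAAT and for TGACGTCA, the cAMP response element. The Col25a1 window held 1 octamer (read here as ATTTGCAT on the opposite strand) and 2 copies of ATGCTAAT. The Dio2 window held 1 copy of TGACGTCA, and the windows of Scn7a, Dlk1 and Six6 held none of the 4 motifs. Among 32851 RefSeq windows of this length, 4.84% held TAATTA, 1.60% held ATGCAAAT, 0.828% held ATGCTAAT and 1.55% held TGACGTCA. Windows with 2 or more copies of ATGCTAAT numbered 4 (0.0122%), but that motif was added to the search after the Col25a1 sequence had been read. These matches describe letters in the windows and were not tested for binding.

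Cells of cluster 10 carried the 5 markers far more often than cells of clusters 0 and 7. Since clusters were drawn from the same genes, these values describe the cluster and were not tested. The shares pool the cells of all mice, and FGF1 mouse 7 alone gave 529 of the 1577 cells of cluster 10. A UMI of Col25a1 was found in 75.1% of cluster 10 cells, against 2.41% in cluster 0 and 11.0% in cluster 7. Scn7a was found in 46.9%, Dlk1 in 35.1%, Dio2 in 25.0% and Six6 in 16.6% of cluster 10 cells. In oligodendrocyte cluster 2, which should lack these genes and measures free RNA, the 5 shares lay between 0.216% and 1.62%. Median depth was 1712 UMIs per cell in cluster 10, 1285 in cluster 0, 2123 in cluster 7 and 1299 in the oligodendrocytes. The pattern was therefore compared again with each cell thinned to 1000 UMIs, which left 1422 cells of cluster 10. At that depth 81.8% of them held at least 1 of the 5 markers and 47.7% at least 2. Holding at least 2 markers was seen in 0.299% of cluster 0, 0.846% of cluster 7 and 0.132% of oligodendrocyte cells. The markers were thus carried together by single cells of cluster 10.

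Measured per mouse, Col25a1, Scn7a and Dlk1 were higher in cluster 10 in every library, and Dio2 and Six6 in most. Levels here are CPM, that is UMI counts scaled to a common total, summed over the cells of a mouse and cluster, scaled across the 36 sums of clusters 10, 0 and 7, as mean ± SD over 12 mice. Col25a1 had a level of 914 ± 287 CPM in cluster 10, 19.4 ± 11.3 in cluster 0 and 82.9 ± 46.5 in cluster 7. Scn7a reached 555 ± 339 CPM against 7.36 ± 4.55 and 11.2 ± 11.1, and its lowest and highest mice in cluster 10 were at 79.5 and 1185 CPM. Relative to its level, Scn7a thus varied more among mice than Col25a1 (557 to 1439 CPM). Both were nonetheless higher than in clusters 0 and 7 in 12 of 12 mice. Dlk1, at 437 ± 162 CPM in cluster 10, was likewise higher in 12 of 12 mice than in either cluster. Dio2 (145 ± 103 CPM) and Six6 (78.9 ± 60.7 CPM) were also higher than in cluster 0 in 12 of 12 mice, but than in cluster 7 in 11 and 10 of them, as the plot of markers by mouse shows. FGF1 mouse 6 (numbered as in the labels) contributed 7 cells to cluster 7, so that its values for that cluster include zeros.

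**Figure D1:**
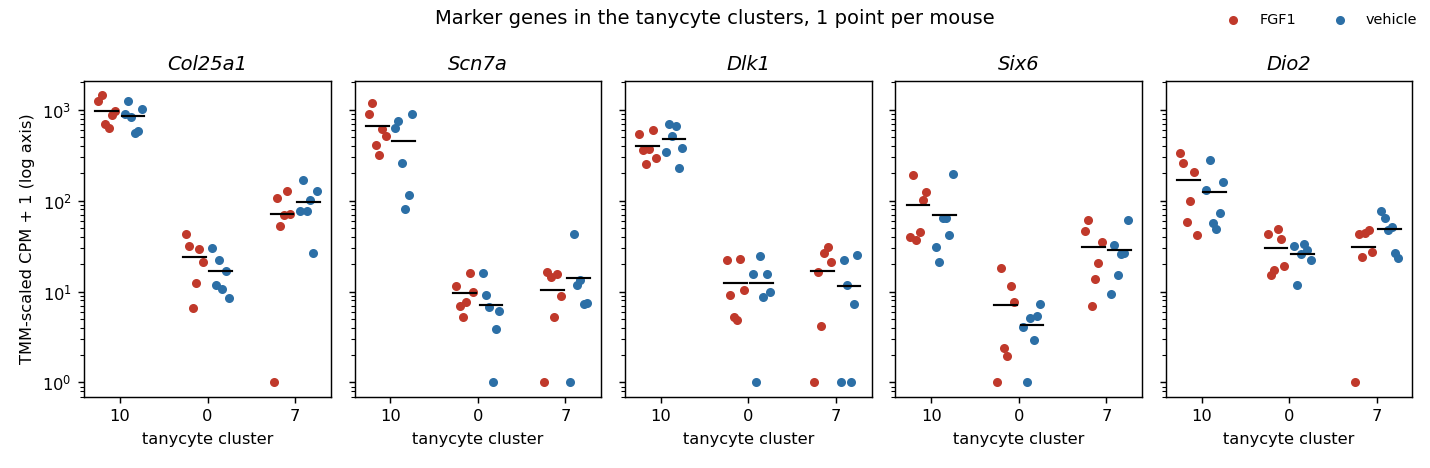
Level of each of the 5 markers (TMM-scaled CPM + 1, log axis) in clusters 10, 0 and 7, where each point is 1 of 12 mice, colour gives the treatment and lines give group means. Cluster 10 sits above clusters 0 and 7 for Col25a1, Scn7a and Dlk1 in all 12 mice, and the FGF1 and vehicle points overlap.

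Other high genes of cluster 10 encode channels, signalling molecules and junction proteins. They were taken as the 12 genes with the largest mean log2 difference from clusters 0 and 7. Cacna2d2, an auxiliary calcium channel subunit, had 142 ± 91.2 CPM in cluster 10 against 13.4 in cluster 0 and 10.6 in cluster 7, a log2 difference of 3.48 from the mean of both. Scn9a, a further sodium channel, had 102 ± 36.8 CPM against 10.2 and 37.9. The cation channel gene Trpm3 had 104 ± 47.2 CPM against 20.5 in each of the other clusters. These 3 channel genes were higher in cluster 10 in 12 of 12 mice. Grik3, a kainate receptor subunit, had 247 ± 99.5 CPM against 36.2 and 84.1, and Penk, which encodes the enkephalin precursor, had 102 ± 75.9 against 9.55 and 34.2. Cldn10, a claudin of tight junctions, had 484 ± 140 CPM against 139 and 118. Ppp1r1b, which encodes DARPP-32 and has been described in tanycytes, had 121 ± 68.6 CPM against 24.0 and 28.6. The transcription factor gene Maf closed the list with a log2 difference of 2.085, and Dio2 came next at 2.062.

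The long noncoding RNA Meg3, often used as a neuronal marker, was among the high genes at 5014 ± 424 CPM, against 767 ± 150 in cluster 0 and 1576 ± 489 in cluster 7. Meg3 is transcribed from the same imprinted region as Dlk1. Of the other neuron markers, Snhg11 was at 175 CPM in cluster 10 against 58.9 and 76.3 in clusters 0 and 7. Snap25 (50.2 CPM), Syt1 (10.8), Rbfox3 (5.25) and Stmn2 (45.7) each had a lower mean than in cluster 0 (78.0, 23.5, 9.29 and 128 CPM). What part neuronal RNA had in the Meg3 and Snhg11 levels was not tested.

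The 8 genes lowest in cluster 10 beside clusters 0 and 7 were Slc7a11, Tppp3, Ramp1, Rnase4, Fabp5, Pltp, Flt1 and the antisense gene 3300002A11Rik. Slc7a11, the cystine transporter, had 27.4 ± 11.6 CPM in cluster 10, 405 ± 102 in cluster 0 and 89.0 ± 83.1 in cluster 7. Tppp3, a tubulin-binding protein of ciliated cells, had 87.5 ± 31.9 CPM against 485 ± 207 and 310 ± 141. Ramp1, a receptor accessory protein, had 90.2 ± 35.1 CPM against 520 ± 143 and 276 ± 94.6. Both Ramp1 and the secreted ribonuclease gene Rnase4 (26.9 CPM against 114 and 96.8) were lower in cluster 10 in every one of the 12 mice. The lipid-binding gene Fabp5 (94.7 CPM against 542 and 226) was lower in all mice as well, whereas Pltp, Flt1 and 3300002A11Rik were lower than cluster 0 in all mice but not lower than cluster 7 in all of them.

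Beside the cluster's own markers few β tanycyte genes were higher in cluster 10 in all mice, and several α tanycyte genes were lower. Of 12 β tanycyte genes, 5 were higher than in cluster 0 and 4 higher than in cluster 7 in all 12 mice, and none was lower in all mice. Of the 9 α tanycyte genes that reached 20 CPM, 6 were lower than cluster 0 in all mice and 2 lower than cluster 7 in all mice, and none was higher than cluster 0 or 7 in all mice. Prdx6, the most abundant α gene, was at 3463 CPM in cluster 10 against 2587 in cluster 0, higher in 10 of 12 mice, and 4613 in cluster 7. For comparison, 114 of 7071 genes that reached that level were higher and 499 lower than cluster 0 in all mice, and 50 and 60 were higher and lower than cluster 7. The β list holds 4 of the cluster's own markers, so its count is not independent of the label. Of its 8 other genes, only Frzb was higher than in cluster 0 and only Penk higher than in cluster 7 in all 12 mice, and Gpr50 was higher in 1 and 2 of 12 mice. Fndc3c1, from the β list, was at 78.1 ± 90.8 CPM in cluster 10 against 0.208 and 4.34, but was higher than in each in only 7 of 12 mice, and Adm, which encodes adrenomedullin, was at 26.0 ± 28.8 against 0.559 and 1.03. Rax, the homeodomain factor that marks all tanycytes, was at 65.6 ± 36.4 CPM against 64.1 ± 23.6 in cluster 0 and 77.2 ± 34.8 in cluster 7. The pan-tanycyte gene Lhx2, a LIM homeodomain factor (176, 159 and 192 CPM in clusters 10, 0 and 7), was also present in all 3. Crym, which encodes a thyroid hormone binding protein, was lower in cluster 10 (235 CPM) than in clusters 0 (470) and 7 (864).

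Among regulators and receptors, Six3, a relative of Six6, was at 468 ± 111 CPM in cluster 10 against 119 and 205. Tbx3 (127 CPM against 40.0 and 54.5), a T-box factor of tuberal hypothalamus, and Trhde (42.3 CPM against 7.62 and 8.78), the enzyme that degrades thyrotropin-releasing hormone, followed the same order. Receptors for FGF differed in kind. Fgfr1 was at 157 CPM against 81.1 and 90.0 and Fgfr2 at 70.5 against 23.8 and 30.3, whereas Fgfr3 was at 44.6 against 130 in cluster 0 and 45.3 in cluster 7. Fgf10, a ligand made by β tanycytes, was at 105 CPM against 59.7 and 68.9. The 5 pars tuberalis markers did not reach 20 CPM in cluster 10, and 8 of 10 astrocyte markers were lower than in cluster 0 in all 12 mice, but 1 of 10 was lower than in cluster 7.

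Numbers of cells were uneven across the mice. FGF1 mice gave 52 to 529 cells of cluster 10 (median 108, sum 1018), and vehicle mice gave 29 to 179 (median 76, sum 559). FGF1 mouse 7 alone held 529. Summed UMIs per mouse ran from 85104 to 1158199 with FGF1 and from 51382 to 359568 with vehicle, and median UMIs per cell from 1388 to 2264 and from 1193 to 2435. Whole libraries held 1967 to 7926 cells and 2652897 to 11866269 UMIs. In cluster 10, 91 cells carried a barcode sequence that also occurred in another library, and 1 barcode sequence was held by 2 libraries within the cluster.

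Cluster 10 made up 14.0 ± 14.2% (SD, n = 6) of the tanycyte cells of FGF1 mice and 11.3 ± 4.76% of those of vehicle mice. FGF1 mice ranged from 3.34 to 40.0% with a median of 7.34%, and vehicle mice from 5.64 to 16.8% with a median of 11.0%. The total held clusters 0, 7 and 10, so this share also depends on the other clusters. Cluster 7 gave 7 to 938 cells in FGF1 mice (median 434.5) and 26 to 239 in vehicle mice (median 80). Cluster 0 gave 167 to 1572 (median 906.5) and 309 to 1429 (median 484.5). The difference of 2.74 percentage points was smaller than the spread between mice (two-sided exact permutation test over 924 splits, p = 0.749). It rested on FGF1 mouse 6, at 40.0%, without which the difference was -2.45 points. As a share of all cells, cluster 10 stood at 3.96 ± 3.64% and 2.01 ± 0.980% (two-sided exact permutation test, p = 0.238), and without FGF1 mouse 7, which stood at 10.9%, the FGF1 mean was 2.56% and the difference fell from 1.94 to 0.544 points. Of the 22 genes that mark or define the cluster here, 17 were tested between treatments and none was called, by the test described next. That does not make them equal between groups. The clusters were drawn from the same genes, so a cell that lost them could leave the cluster and not be counted here. Fabp5 had a log2 FC of -0.95 ± 0.27 (edgeR FDR = 0.064). Penk ran from 14.6 to 108 CPM in FGF1 mice and from 86.2 to 286 in vehicle mice, on the scale of the cluster comparison.

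Between FGF1 and vehicle, 46 of 2159 tested genes differed in cluster 10 at FDR below 0.05, or 2.13%. They divide into 21 that rose with FGF1 (0.973%) and 25 that fell (1.16%). Those that fell include transporters and a pump subunit typical of astrocytes, and those that rose include translation factors, ribosomal proteins, annexins and vimentin. Counts were summed per mouse and compared by edgeR's quasi-likelihood test, so every p-value measures the spread between mice. Levels in this comparison are CPM scaled over the 12 sums of cluster 10 and are not on the scale of the cluster comparison above. Over all tested genes the median log2 fold change (FC) was 0.005. The 2 groups of mice did not overlap for 45 tested genes (2.08%). Without vehicle mouse 20 or vehicle mouse 25 the count was 30, and 24 of the 46 genes were called in each of the 12 fits that left out 1 mouse. Fewer cells making a transcript and less of it per cell cannot be told apart in such sums.

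**Figure D2:**
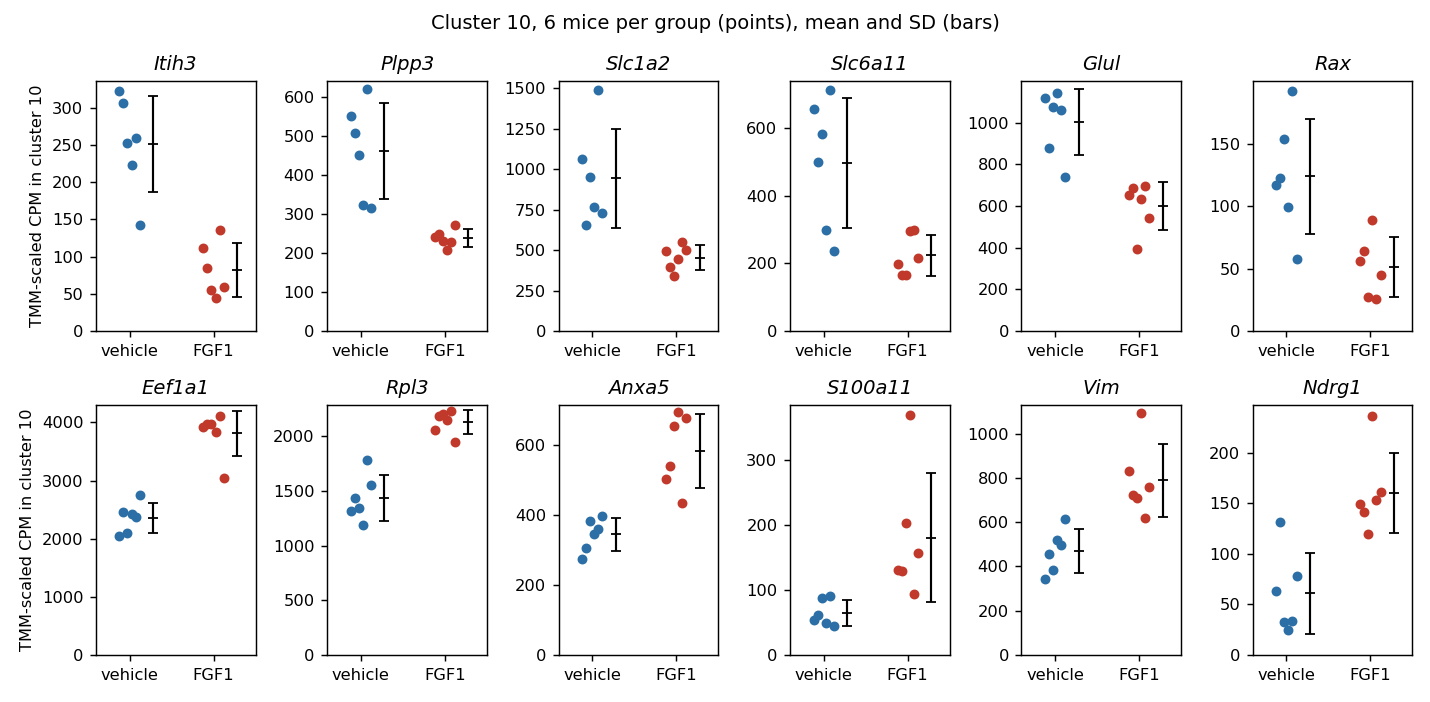
Level (TMM-scaled CPM) of 12 called genes in cluster 10, with 1 point per mouse, 6 mice per group, and bars for mean and SD. The upper row fell with FGF1 and the lower row rose, and the groups overlap for Slc6a11, Rax and Ndrg1 alone among these 12.

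Itih3, which encodes a heavy chain of the hyaluronan-binding inter-alpha-trypsin inhibitor family, fell the most. Its level ran from 142 through a median of 256 to 322 CPM in vehicle mice and from 44.3 through 72.0 to 136 CPM in FGF1 mice. The groups did not overlap, and the log2 FC was -1.57 ± 0.24 (edgeR FDR = 0.00068). Atp1b2, a β subunit of the sodium pump, fell from 380 ± 67.7 to 201 ± 47.2 CPM (log2 FC -0.89 ± 0.18). Itih3 and Atp1b2 were lower with FGF1 in 6 of 6 batches of the metadata, each of which holds 1 mouse of either group.

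Slc1a2, Glul and Slc6a11, which handle glutamate and GABA, fell. Slc1a2, the main glutamate transporter of astrocytes, ran from 657 through 862 to 1488 CPM in vehicle mice and from 341 through 470 to 553 CPM in FGF1 mice (log2 FC -1.05 ± 0.18, edgeR FDR = 0.0014). Glul, the glutamine synthetase gene, fell from 1001 ± 159 to 602 ± 115 CPM (log2 FC -0.71 ± 0.15). For these 2 genes no FGF1 mouse reached a vehicle mouse. Slc6a11, a GABA transporter gene, fell as well (497 ± 192 to 223 ± 60.1 CPM, log2 FC -1.22 ± 0.26), with overlapping groups. Without a filter on low counts Glul was not called.

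Agt, Gpr37l1, S1pr1, Ntrk2, Plpp3, Sparc, Sparcl1 and S100b were also lower. Agt, the angiotensinogen gene, fell from 168 ± 94.0 to 76.6 ± 25.6 CPM (log2 FC -1.25 ± 0.29), but leaving out 1 mouse ended the call in 5 of 12 cases, with an edgeR FDR of up to 0.101. The orphan receptor gene Gpr37l1 (log2 FC -1.07 ± 0.28), the sphingosine-1-phosphate receptor gene S1pr1 (-0.91 ± 0.23) and Ntrk2, the receptor of brain-derived neurotrophic factor (3198 ± 766 to 2050 ± 264 CPM, -0.63 ± 0.14), fell. The lipid phosphatase gene Plpp3 fell from 461 ± 124 to 239 ± 22.1 CPM with no overlap (-0.94 ± 0.17). Sparc and Sparcl1, which encode matricellular proteins, fell by 0.58 and 0.88 on the log2 scale. S100b, a calcium-binding protein of astrocytes and α tanycytes, fell from 231 ± 74.0 to 137 ± 24.3 CPM. Calls were lost in some of the 12 fits that left out 1 mouse, namely 8 for Gpr37l1, 9 for S1pr1, 6 for S100b and 1 (without vehicle mouse 25) for Sparc. Without a filter on low counts Gpr37l1, Ntrk2, Sparc and S100b were not called. S100b was also not called with batch as a block (edgeR FDR = 0.096), within the 20% limits on mitochondrial and ribosomal UMIs (0.053) or with thinned cells (0.12). S1pr1 lost the call within those limits (0.051) and with thinned cells (0.056), and Agt within the limits (0.063). Gpr37l1 was tested in neither of these settings, and Agt was not tested with thinned cells.

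The circadian output genes Dbp and Tef, which encode related PAR bZIP factors, both fell. Dbp ran from 114 through 139 to 187 CPM with vehicle and from 46.1 through 67.7 to 103 CPM with FGF1, with a log2 FC of -0.92 ± 0.22 (edgeR FDR = 0.021). Tef had a log2 FC of -0.87 ± 0.20 (edgeR FDR = 0.014). Dbp was not called in 5 of the 12 fits without 1 mouse, nor Tef without vehicle mouse 20 (edgeR FDR = 0.053). Dbp shares exon sequence with Sphk2 in the annotation. The lipid genes Scd2, a fatty acid desaturase (1352 ± 305 to 851 ± 50.4 CPM), and Cds2, an enzyme of phospholipid synthesis (271 ± 32.3 to 173 ± 31.6 CPM), fell by 0.64 on the log2 scale each. Cds2 was not called in 8 of the 12 fits without 1 mouse, nor with batch as a block, and with thinned cells neither Cds2 (edgeR FDR = 0.18) nor Scd2 (0.056) was called. Without a filter on low counts neither was called. Gstm1, Fam107a, Itm2c, Sft2d2 and Gm29508 also fell, with log2 FC from -1.05 to -0.60, but leaving out 1 mouse ended the call of Sft2d2 in 8, Itm2c in 6, Fam107a in 5 and Gm29508 in 4 of 12 fits. With thinned cells Fam107a was not called (edgeR FDR = 0.13), and without a filter on low counts Dbp, Tef, Gstm1, Fam107a, Itm2c and Gm29508 were not. Dbp, Tef and Gm29508 were not tested with thinned cells, nor was Gm29508 within the 20% limits.

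Rax fell from 124 ± 45.9 to 51.1 ± 23.8 CPM. Its vehicle mice ran from 57.6 through 120 to 192 CPM and its FGF1 mice from 25.5 through 50.4 to 88.7, so the groups overlapped, although FGF1 was lower in 6 of 6 batches. The log2 FC was -1.09 ± 0.30 (edgeR FDR = 0.046). The call was lost in 9 of 12 fits that left out 1 mouse, and the FDR reached 0.173 without vehicle mouse 29. It was lost without a filter on low counts too. Rax rested on 90 UMIs in vehicle and 92 in FGF1 mice, and its exons overlap the antisense gene Raxos1.

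Some astrocyte markers were among the lower genes. Of 10 astrocyte markers, 6 were tested and 3 fell (Slc1a2, Slc6a11 and Agt, against a background of 1.16%), with a median log2 FC of -0.93. The other 3, Ntsr2, Mlc1 and Gja1, had log2 FC of -0.81, -0.56 and -0.30 and were not called. All 10 markers were above 0 in cluster 10. Their summed level ran from 1630 through 2273 to 3208 CPM in vehicle mice and from 1071 through 1423 to 1527 in FGF1 mice, as the plot of summed astrocyte markers shows. In microglia cluster 8, which does not make these genes, the sum ran from 1988 through 3391 to 4038 with vehicle and from 1452 through 2319 to 3222 with FGF1. In endothelial cluster 3 it ran from 2169 through 3211 to 3654 and from 1418 through 1991 to 2604, and in oligodendrocyte cluster 2 from 2200 through 3145 to 3733 and from 2432 through 2915 to 3758. The sum was thus lower with FGF1 in tanycytes, microglia and endothelial cells on average and nearly equal in oligodendrocytes. In astrocyte clusters 1 and 4 the log2 ratios of the group means were 0.11 and 0.07.

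The libraries also differed in their astrocytes. Astrocyte cluster 1 made up 21.5 to 32.2% of the cells of vehicle libraries and 0.828 to 11.3% of those of FGF1 libraries. Astrocyte cluster 4 had the opposite order, with 1.02 to 6.31% of vehicle and 10.4 to 19.8% of FGF1 libraries. Both astrocyte clusters together made up 23.7 to 34.4% and 11.9 to 25.4%. In microglia, Itih3 had a log2 FC of -1.04 ± 0.28, Slc1a2 of -0.63 ± 0.21 and Slc6a11 of -0.60 ± 0.27, beside -1.57, -1.05 and -1.22 in cluster 10. These 3 genes thus had negative log2 FC in a cell type that does not make them too, and the part of free astrocyte RNA in the lower genes of cluster 10 was not tested. Microglia were 1 of several such cell types. The tested astrocyte markers had a median log2 FC of -0.45 in microglia, -0.55 in endothelial cells and -0.15 in oligodendrocytes. Rax had a mean of 11.6 CPM or less in both groups in the microglia, endothelial and oligodendrocyte clusters and was not tested there.

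**Figure D3:**
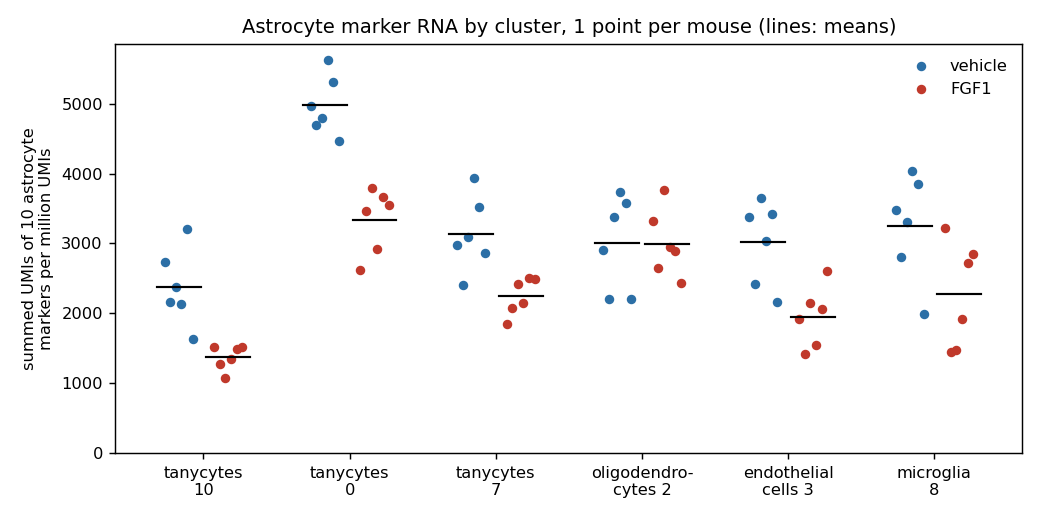
Summed level of 10 astrocyte markers (CPM) in tanycyte clusters 10, 0 and 7 and in oligodendrocyte, endothelial and microglia clusters, with 1 point per mouse, colour for treatment and lines for group means. FGF1 mice lie at 1071 to 1527 and vehicle mice at 1630 to 3208 in cluster 10, and microglia and endothelial cells also have lower medians with FGF1.

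Vim, S100a11, Anxa5 and Anxa2 of the reactive glia list and the actin gene Actg1 rose. Of 27 reactive glia genes, 11 were tested and 4 rose (S100a11, Vim, Anxa5 and Anxa2), none fell, and the median log2 FC was 0.38, beside a background of 0.973% higher. S100a11, a small calcium-binding protein, ran from 44.0 through 57.5 to 90.2 CPM in vehicle mice and from 93.6 through 144 to 370 in FGF1 mice. The groups did not overlap, with a log2 FC of 1.41 ± 0.30 (edgeR FDR = 0.0088). Vim, the intermediate filament vimentin, ran from 341 through 476 to 616 CPM with vehicle and from 621 through 740 to 1094 with FGF1 (0.74 ± 0.16, edgeR FDR = 0.010). Anxa5, a phospholipid-binding annexin, rose from 345 ± 47.0 to 584 ± 107 CPM (0.75 ± 0.16). These 3 genes kept the call in each of the 12 fits that left out 1 mouse. Anxa2 rose from 249 ± 38.8 to 413 ± 98.3 CPM (0.67 ± 0.18) but was not called in 6 of those 12 fits. Actg1, a cytoplasmic actin, rose by 0.55 ± 0.13 on the log2 scale and was not called in 5 of them. With thinned cells Anxa5 (edgeR FDR = 0.056), Anxa2 (0.35) and Actg1 (0.18) were not called, nor were Anxa2 (0.060) and Actg1 (0.053) within the 20% limits. S100a11 was not tested in either of these settings.

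Vim and S100a11 also had positive values in cell types that make little of them. Vim had log2 FC of 1.81 ± 0.45 in microglia and 1.87 ± 0.23 in oligodendrocytes, at 137 and 127 CPM in FGF1 mice, and S100a11 had 1.63 ± 0.29 in oligodendrocytes. The part of free RNA in those values, and in the rise of Vim and S100a11 in cluster 10, was not tested, nor was its source. Other genes that rose were Ndrg1, a gene of stress and differentiation responses (60.7 ± 40.2 to 160 ± 39.9 CPM, 1.17 ± 0.27), Vmp1, of autophagy (69.8 ± 36.4 to 139 ± 62.3 CPM, 1.19 ± 0.30), Thrsp, a lipogenic thyroid hormone-responsive gene (800 ± 89.2 to 1270 ± 368 CPM, 0.67 ± 0.16), and the cyclin gene Ccnd2 (247 ± 58.9 to 404 ± 67.0 CPM, 0.63 ± 0.17). Of these, Vmp1 and Ccnd2 were not called by DESeq2 (adjusted p = 0.051 and 0.078), and Vmp1 overlaps Mir21a. With batch as a block neither was called (edgeR FDR = 0.076 and 0.081), and Ccnd2 was also lost with RLE scaling, within the 20% limits and with thinned cells. Vmp1 was not tested within those limits, and neither Vmp1 nor Ndrg1 was tested with thinned cells. Ccnd2 stood at the threshold (edgeR FDR = 0.0499) and lost the call in 9 of 12 fits without 1 mouse. Vmp1 lost it in 7, Thrsp in 3 (without FGF1 mouse 10 or 36 or vehicle mouse 25) and Ndrg1 in 1 (without vehicle mouse 20, edgeR FDR = 0.053).

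Genes of protein synthesis also rose. By number, though not by share of those tested, ribosomal proteins had the most genes that rose of any list. Of 81 ribosomal protein genes, 79 were tested, 9 rose (against a background of 0.973%) and none fell, and 71 of the 79 had a positive log2 FC, with a median of 0.24 beside 0.005 over all tested genes. Eef1a1, the translation elongation factor, ran from 2053 through 2405 to 2754 CPM with vehicle and from 3043 through 3943 to 4117 with FGF1, with no overlap (log2 FC 0.69 ± 0.11, edgeR FDR = 0.0011). Rps4x rose from 1717 ± 326 to 2821 ± 249 CPM (0.70 ± 0.12) and Rpl3 from 1437 ± 208 to 2127 ± 108 CPM (0.56 ± 0.11). Naca, a subunit of the nascent polypeptide-associated complex, and Eif4a2, an initiation factor, rose by 0.58 ± 0.12 and 0.59 ± 0.14. Many of these genes have processed pseudogenes, so the assignment of their reads is less certain.

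The share of ribosomal UMIs per cell moved with them. The median per mouse lay between 13.7 and 16.6% in FGF1 and between 11.8 and 14.6% in vehicle mice. Within the stated limits of 20% mitochondrial and 20% ribosomal UMIs were 812 of 1018 FGF1 cells and 532 of 559 vehicle cells. The ribosomal limit cuts on the quantity tested, and the limits took out a larger share of FGF1 cells. Calls of ribosomal genes within them are therefore no independent check. With those cells alone Eef1a1 (0.58, edgeR FDR = 0.0028), Rps4x (0.58, 0.0037), Rpl3, Rpl7, Rplp0 and Rps7 were still called, whereas Rps6 (FDR = 0.056), Rpl26 (0.058), Rps3 (0.058) and Rps3a1 (0.18) were not. With cells thinned to 1000 UMIs, Rpl3, Rpl7, Rps7 and Rpl26 were not called (edgeR FDR = 0.056 each), nor was Eif4a2 (0.088). Rps3 lost the call in 4 and Rps3a1 in 8 of the 12 fits without 1 mouse, and both with batch as a block (edgeR FDR = 0.051 and 0.083). The median log2 FC of the ribosomal genes was 0.29 in cluster 0, 0.08 in cluster 7, 0.16 in microglia, 0.08 in endothelial cells, -0.07 in oligodendrocytes, and -0.11 and -0.10 in astrocyte clusters 1 and 4. What part cell condition after dissociation had in this was not tested.

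Several lists had no called member, which with 2.13% of all tested genes called and so few members tested says little about them. Of the FGF ligands and receptors 3 were tested and none was called, with Fgf10 at 110 ± 24.4 CPM in vehicle and 164 ± 25.9 in FGF1 mice (log2 FC 0.50 ± 0.20, edgeR FDR = 0.24) and Fgfr1 with a log2 FC of 0.24 ± 0.20. The MAPK feedback and ETS target genes had 2 tested members and the thyroid hormone genes 5, none called, and Thra had a log2 FC of -0.58 ± 0.19 (edgeR FDR = 0.12). None of 13 tested genes of glucose and lactate use was called, and their median log2 FC was 0.04. The retinoid (3 tested), barrier (4), glucocorticoid-responsive (4), ependymal (4), oligodendrocyte (3) and neuron (2) lists had no called member either. Scd2 was the one called member of 6 tested cholesterol and lipid genes, and Sparc and Sparcl1 were the called members of 12 tested genes for secreted peptides and matrix, all lower, beside a background of 1.16%. Microglia, macrophage, OPC, endothelial, pericyte, VLMC and pars tuberalis markers had no member high enough to be tested. Their summed levels in cluster 10, on the scale of the astrocyte sum, were low. Some differed between groups by more than the astrocyte sum did (log2 ratio of means -0.79). The 6 OPC markers summed to 25.8 to 232 CPM in vehicle and 24.2 to 51.8 in FGF1 mice (-1.33), and the 5 pericyte markers to 13.9 to 156 and 7.39 to 75.0 CPM (-0.995). The 6 macrophage markers, 3 of them at 0, summed to 0 to 13.9 and 0 to 33.3 CPM (2.22). The groups overlapped for these 3 sums, and what part such RNA had in the called genes was not tested.

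Immediate early genes were all on the positive side without a call. The 12 tested members had a median log2 FC of 0.81. The median was 0.26 in cluster 0, 0.12 in cluster 7, 0.17 in oligodendrocytes and 0.15 in endothelial cells. It was -0.02 in microglia, and -0.60 and -0.48 in astrocyte clusters 1 and 4. Fos ran from 834 through 1803 to 2910 CPM in vehicle mice and from 1387 through 3127 to 6078 in FGF1 mice, with wide overlap (0.87 ± 0.47, edgeR FDR = 0.48). Egr1 had a log2 FC of 0.98 ± 0.61 (edgeR FDR = 0.57). Fos, Egr1 and Jun were higher with FGF1 in 4 of 6 batches and Btg2 in 3 of 6. Hes1, a Notch target, ran from 1071 to 1614 CPM with vehicle but from 525 to 5614 with FGF1 (0.90 ± 0.50, edgeR FDR = 0.51). The FGF1 mice thus differed among themselves for Hes1 by a wider range than the vehicle mice.

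None of the 5 markers of the cluster was called between FGF1 and vehicle. Membership depends on such genes, so this comparison cannot show whether FGF1 changed them in cells that left the cluster. Col25a1 ran from 812 through 1146 to 1630 CPM in vehicle mice and from 843 through 1156 to 1661 in FGF1 mice (log2 FC 0.10 ± 0.19). Scn7a ran from 124 through 585 to 1101 CPM and from 429 through 719 to 1367 (0.40 ± 0.50). Dlk1 had a log2 FC of -0.29 ± 0.32, Six6 of 0.33 ± 0.55 and Dio2 of 0.31 ± 0.55. The edgeR FDR lay between 0.80 and 0.92, and with standard errors of 0.50 or more the fit says little about Scn7a, Six6 and Dio2. Gpr50, an orphan receptor of the β list, was at 465 ± 119 and 592 ± 112 CPM and was not called (edgeR FDR = 0.37).

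Whether FGF1 acted differently on cluster 10 than on clusters 0 and 7 was tested by the interaction of cluster and treatment, with mouse as a block. No gene of 6313 (0%) was called by edgeR against cluster 0 or against cluster 7, and DESeq2 called 0 in each. Unadjusted p-values below 0.05 numbered 402 and 376. The 46 genes called in cluster 10 were all tested, and 9 and 10 of them had an unadjusted p below 0.05. A difference between clusters was therefore not shown for any of them. The sums of cluster 7 rested on 26 to 239 cells per vehicle mouse and 7 to 938 per FGF1 mouse. Without vehicle mouse 35, 25 genes were called against cluster 0 and 5 against cluster 7. The smallest p against cluster 0 belonged to Cldn10, at 454 ± 162 CPM in vehicle and 513 ± 120 in FGF1 mice in cluster 10 but 162 ± 13.4 and 117 ± 39.9 in cluster 0 (log2 difference of effects 0.76 ± 0.17, edgeR FDR = 0.14). Next was Ptch1, the Hedgehog receptor, with a log2 difference of 0.96 ± 0.23 (edgeR FDR = 0.14). Against cluster 7, Stmn2 (-1.38 ± 0.33) and S100b (-0.91 ± 0.22) had the smallest p, both with an edgeR FDR of 0.16. S100b was at 173 ± 59.7 and 109 ± 21.7 CPM in cluster 10 but at 135 ± 54.7 and 167 ± 67.1 in cluster 7, on the scale of the 36 sums.

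The named genes are given side by side for the 3 clusters, which share libraries. Itih3 had log2 FC of -1.57 ± 0.24 in cluster 10, -1.37 ± 0.22 in cluster 0 and -1.23 ± 0.32 in cluster 7. Rax had -1.09 ± 0.30, -0.68 ± 0.20 and -0.68 ± 0.29. Vim had 0.74 ± 0.16, 1.06 ± 0.12 and 0.93 ± 0.16, and S100a11 had 1.41 ± 0.30, 1.17 ± 0.20 and 1.11 ± 0.17. Eef1a1 had 0.69 ± 0.11, 0.76 ± 0.11 and 0.46 ± 0.14, and Glul had -0.71 ± 0.15, -0.86 ± 0.12 and -0.82 ± 0.14. None of these 6 genes was called in either interaction.

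**Figure D4:**
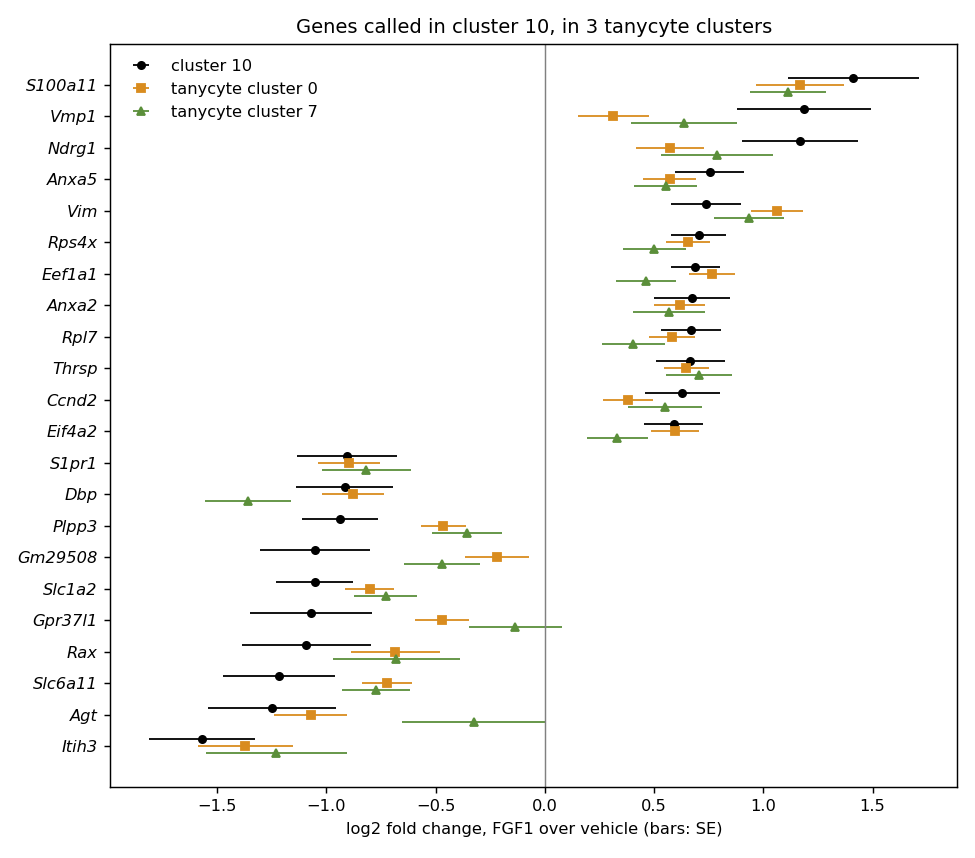
Log2 fold change (FGF1 over vehicle) of 12 genes that rose and 10 that fell in cluster 10, shown for clusters 10, 0 and 7 with bars for the standard error. Itih3 is low in all 3 clusters (-1.57, -1.37 and -1.23), and Vim is high in all 3 (0.74, 1.06 and 0.93).

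Nuclei of other mice were examined for the same genes. These came from ob/ob mice given the same injections, and were annotated as tanycytes by the authors without a match to cluster 10. On Day 1, with 3 mice per group and 20 to 119 tanycyte nuclei per mouse, 323 of 3534 genes were called (9.14%). Of the 46 genes called in cluster 10, 39 were tested on Day 1 and 13 were called there. S100a11 rose from 23.4 ± 20.2 to 413 ± 240 CPM (log2 FC 3.92 ± 0.60, edgeR FDR = 0.0020) and Vim from 209 ± 80.6 to 1506 ± 946 CPM (2.79 ± 0.50, 0.0045). Anxa2 (2.86 ± 0.49), Ndrg1 (2.85 ± 0.53) and Eef1a1 (1.71 ± 0.49) also rose. Glul (-1.71 ± 0.42), Ntrk2 (-1.56 ± 0.37, edgeR FDR = 0.019) and Sparcl1 (-1.33 ± 0.38, 0.047) fell, as in cluster 10. Slc1a2 (-1.34), Slc6a11 (-0.98) and Agt (-0.86) had negative values without a call, and Gpr37l1 (0.71) and S1pr1 (0.38) positive ones. The total of 323 was 72 without vehicle mouse 1, 192 without FGF1 mouse 2 and 204 without vehicle mouse 2, and of 8 alternatives S100a11 lost the call in none, Glul in 3 and Eef1a1 in 5. In contrast Itih3 was at 154 ± 30.7 CPM in vehicle and 165 ± 83.5 in FGF1 nuclei and was not called. Rax was too low to be tested, at 34.6 ± 25.9 and 6.01 ± 10.4 CPM.

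On Day 5, with 2 mice per group, no gene of 2437 (0%) was called by edgeR, 207 had an unadjusted p below 0.05, and DESeq2 called 2. The vehicle mice held only 9 and 14 tanycyte nuclei. Vim was at 69.1 ± 24.7 CPM in vehicle and 269 ± 0.273 in FGF1 mice (log2 FC 1.57 ± 0.44, edgeR FDR = 0.44). Itih3 was at 122 ± 9.61 and 381 ± 116 CPM (1.39 ± 0.42, edgeR FDR = 0.44), on the opposite side of its value in whole cells of the same day. Other genes that fell in whole cells had positive values here too, among them Sparcl1 (1.76), Agt (1.45), Gpr37l1 (1.39), Sparc (1.35), Slc6a11 (1.04), S100b (0.93) and Plpp3 (0.74). Tef (-0.61), Gstm1 (-0.28) and S1pr1 (-0.21) were among those with negative values. None of these differences passed the threshold at this depth. Col25a1 was at 2073 ± 376 and 1120 ± 904 CPM in these nuclei (edgeR FDR = 0.55).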

How the data were processed

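Whole cells were captured with the 10x Chromium 3′ v2 kit from 12 mice and nuclei from 10. Per the study's methods, the authors aligned reads with Cell Ranger 1.2 to GRCm38 (introns included for nuclei). Cells over 20% mitochondrial or ribosomal UMIs were removed, with a lower limit for nuclei. From the whole cells alone they also removed Scrublet doublets, neurons, and clusters in which 1 sample gave most cells. The deposited whole cells still include some above the 20% limits. The deposited values used here are whole-number UMI counts per gene and cell, not normalized. The deposited normalized values were not used. Clusters, batches and mice were taken from the deposited metadata. Groups followed the labels. The library of vehicle mouse 35 is titled FP where others read PF, and its protocol gives PBS and pair-feeding.

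Counts were summed per mouse and cluster, filtered by filterByExpr, scaled by TMM and tested with edgeR 4.0.16 (robust quasi-likelihood, Benjamini-Hochberg FDR below 0.05) in R 4.3.3. DESeq2 1.42.0, RLE scaling, no filter, the batch as a block, thinning to 1000 UMIs, the 20% limits and leaving out each mouse were alternatives. Log2 differences within a mouse used CPM + 1. The ± of a log2 FC is a standard error derived as the absolute log2 FC over the square root of the F statistic. It does not match the printed p for every gene. The scripts were tested on simulated data: for cluster 10, 84 of 91 tested genes changed 2-fold and 87 of 87 changed 4-fold were called, and for Day 1 nuclei 11 of 98 and 76 of 86. The members and the 29 gene lists were chosen with earlier results of these data known. The genes named were the 5 markers, the called genes with the largest fold changes at 20 CPM or more, called members of each list and its highest other members, the 12 highest and 8 lowest genes of the cluster comparison at 100 CPM or more, and the 6 smallest p of each interaction. Some named genes are not reported here. A few further uncalled members of lists were named after their values had been seen.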

Additional observations from a re-analysis of the deposited data

Results flagged for a closer look

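For each group of 6 mice it was asked whether the highest or lowest mouse stood apart from the rest, by the gap to its neighbour as a share of the group's range (above 0.625). Of 138 groups examined 11 had such a mouse, and chance alone flags about 1 in 20. Six6 was at 237 CPM in vehicle mouse 35, with the next at 99.2, and Gja1 was at 295 CPM in the same mouse, below the next at 494. Eef1a1 was at 3043 CPM in FGF1 mouse 36, with the next at 3843. In FGF1 mouse 21, Ndrg1 was at 237 CPM (next 161) and Gm29508 at 103 CPM (next 60.5). In vehicle mouse 27, which had the fewest cells of cluster 10 (29), Sft2d2 was at 670 CPM (next 372) and Rps3a1 at 1116 CPM (next 1668). In FGF1 mouse 28, Apoe was at 5878 CPM (next 2494) and Fgf10 at 213 CPM (next 166). FGF1 mouse 7 held 529 cells of cluster 10 (next 164), which was 10.9% of all its cells (next 4.86%).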

How the results depend on the processing

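The count of 46 called genes in cluster 10 became 79 without a filter on low counts, 23 with cells thinned to 1000 UMIs, and 30 to 63 when 1 mouse was left out (30 without vehicle mouse 20 or 25, 63 without vehicle mouse 35). It was 48 with DESeq2, 45 with RLE, 47 with batch as a block and 32 within the 20% limits. Of the 46 genes, 24 were called in all 12 fits without 1 mouse, 44 by DESeq2, 40 with the batch block, 32 without a filter, 31 of 41 tested within the 20% limits and 21 of 35 tested with thinned cells, and 13 lost the call in no setting in which they were tested. The deviations of batch partners had correlations from -0.278 to 0.178, and batch was used as a block in an alternative only. The interaction count against cluster 0 went from 0 to 4 without a filter, to 2 within the 20% limits and to 0 to 25 without 1 mouse (25 without vehicle mouse 35, 3 without FGF1 mouse 36, 2 without FGF1 mouse 7 or 28 or vehicle mouse 22, 1 without FGF1 mouse 6), and that against cluster 7 to 0 to 5 (5 without vehicle mouse 35, 2 without FGF1 mouse 6). The share of tanycyte cells differed by -2.45 to 4.88 points without 1 mouse, reversed without FGF1 mouse 6. The share of all cells differed by 0.544 to 2.49 points when 1 mouse was left out, an alternative chosen after seeing the data. Day 1 nuclei gave 235 calls with the replicate block against 323, 289 with DESeq2 and 72 to 378 without 1 mouse (72 without vehicle mouse 1, 192 without FGF1 mouse 2, 204 without vehicle mouse 2). Correlations of their same-numbered mice were -0.055, -0.212 and 0.131, and the replicate was used as a block in an alternative only. Day 5 nuclei gave 2 calls with DESeq2 against 0. Col25a1 had a log2 FC from -0.027 (without FGF1 mouse 7) to 0.23 (without vehicle mouse 22) and was uncalled throughout. Why these values moved was not tested. No other gene reversed. Of the values for single genes, 1222 stayed on their side of the threshold, 207 lost a call and 31 gained one. Fewer than 100 UMIs lay behind some called genes in a group (Rax, Ndrg1, S100a11, Vmp1, Gm29508).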
